A study of Mus musculus with 17 samples.

Results

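The globins and erythroid genes described here are 10 genes chosen by name and read across all kidney libraries: the embryonic alpha-like globin Hba-x, the adult alpha globins Hba-a1 and Hba-a2, the embryonic beta-like globins Hbb-y and Hbb-bh1, the adult beta globins Hbb-bt and Hbb-bs, and the erythroid genes Alas2, Slc4a1 and Epor. Of these 10 genes, 9 had a row among the 24432 gene IDs and Hba-a2 is not analysed here. RNA came from mouse kidneys dissected at E12.5 on a mixed strain background. In 5 libraries, of genotype Ctnnb1-delta3 c/+;Foxd1, a stabilised beta-catenin (the protein of Ctnnb1, lacking exon 3) was switched on by Cre in the stromal lineage, and these are called Foxd1-Cre kidneys. In 3 libraries, of genotype Ctnnb1-delta3 c/+;Six2, the same allele was active in nephron progenitors and their descendants, and these are called Six2-Cre kidneys. The other 9 libraries came from wild-type kidneys. The labels describe neither Cre as active in blood cells, and they do not say whether kidneys of several embryos were pooled or whether replicates were separate animals, so p-values measure the spread between these libraries. Foxd1-Cre kidneys were compared with wild-type replicates 1 to 6, and Six2-Cre kidneys with wild-type replicates 7 to 9. The labels do not name these 2 library sets. The first set of 11 libraries had 5312 to 5807 genes at 0 and the second set of 6 had 7590 to 7891. Depth was estimated from the lowest FPKM values above 0, scaled by transcript length, with each assumed to be 1 read. In units of 1000000 reads it was 28.8 to 37.4 in the first set and 5.24 to 5.79 in the second. A gene-level FPKM does not show the loss of exon 3 from Ctnnb1, so that gene checks no label here.

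Hemoglobin is built from alpha-like and beta-like globin chains, each holding a heme. In the mouse embryo the first wave of red cells, made in the yolk sac, carries the embryonic chains and matures in the bloodstream with its RNA, while red cells made later in the fetal liver carry the adult chains. This division is not taken as strict here, and globin shares are not read as shares of these cells. Beta-like expression is known to shift first from Hbb-bh1 to Hbb-y and then to the adult genes. Alas2 is the erythroid form of the first enzyme of heme synthesis, Slc4a1 is the band 3 anion exchanger of the red cell membrane, and Epor is the erythropoietin receptor, which is found on erythroid progenitors and also on some endothelial cells. The kidney at this stage is not known as a site of red cell formation, so these transcripts are commonly read as blood within the dissected tissue. In bulk tissue, fewer cells of a type and less RNA per cell cannot be told apart.

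The beta-like genes lie side by side on the minus strand of chromosome 7 (GRCm38). Hbb-bt spans 103812524 to 103813996, Hbb-bs spans 103826534 to 103828096, Hbb-bh1 spans 103841637 to 103843164 and Hbb-y spans 103851749 to 103853216. The alpha-like genes lie on the plus strand of chromosome 11, with Hba-x at 32276400 to 32278116, Hba-a1 at 32283511 to 32284465 and Hba-a2 at 32296489 to 32297298. Slc4a1 lies on chromosome 11 at 102348824 to 102366203, Epor on chromosome 9 at 21958897 to 21963506 and Alas2 on chromosome X at 150547375 to 150570638. The transcripts of Hba-a1 and Hba-a2 were 99.8% identical where aligned, and 71.3% of the 31-base words of Hba-a1 also occurred in Hba-a2, so the value listed for Hba-a1 may hold reads of both copies. Hbb-bt and Hbb-bs were 92.7% identical, and 59.4% of the 31-base words of Hbb-bt occurred in Hbb-bs, so their split is uncertain. No 31-base word was shared between Hba-x and Hba-a1, between Hbb-y and Hbb-bh1, or between either embryonic and either adult beta globin, so embryonic and adult transcripts were separable by sequence.

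Promoters of an embryonic beta globin, an adult beta globin and Epor are shown because these 3 genes stand for the contrasts described below: embryonic against adult chains, and the gene whose change differed in direction between the mutants. Each is the RefSeq window (GRCm38.p6) from 250 bases before the gene's start to 50 after it, 5′ to 3′ on the gene's strand, with capitals for GATA spellings (AGATAA and AGATAG, besides TGATAA and TGATAG) and for CACCC, on either strand, with no overlap between these motifs.
Hbb-y, chr7:103853158-103853457, minus strand: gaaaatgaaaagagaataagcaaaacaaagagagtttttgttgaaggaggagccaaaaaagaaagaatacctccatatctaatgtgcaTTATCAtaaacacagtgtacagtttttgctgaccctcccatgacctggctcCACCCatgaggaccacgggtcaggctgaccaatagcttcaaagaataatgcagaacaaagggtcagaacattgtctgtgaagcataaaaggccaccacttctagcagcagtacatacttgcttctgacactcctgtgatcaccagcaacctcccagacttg
Hbb-bs, chr7:103827879-103828178, minus strand: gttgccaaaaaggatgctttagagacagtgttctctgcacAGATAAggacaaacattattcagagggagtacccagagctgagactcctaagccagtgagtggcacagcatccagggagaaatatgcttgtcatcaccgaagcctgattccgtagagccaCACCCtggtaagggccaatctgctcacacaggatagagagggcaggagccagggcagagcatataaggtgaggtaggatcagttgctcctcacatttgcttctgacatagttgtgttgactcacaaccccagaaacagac
Epor, chr9:21963527-21963826, minus strand: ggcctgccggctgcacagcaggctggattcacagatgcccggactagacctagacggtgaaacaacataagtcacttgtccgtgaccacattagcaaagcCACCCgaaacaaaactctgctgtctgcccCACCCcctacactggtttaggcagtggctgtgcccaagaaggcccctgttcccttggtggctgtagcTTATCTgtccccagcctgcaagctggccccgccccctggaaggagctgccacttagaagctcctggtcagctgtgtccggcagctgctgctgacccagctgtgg
The GATA spellings are those bound by the GATA factor family, whose member Gata1 drives erythroid genes, and CACCC is the core bound by Klf1 and its relatives. Promoter windows were at hand for 8 of the 10 genes, and a GATA spelling occurred in 7 of these 8, the exception being Hbb-bt. Over 32851 mouse promoter windows of the same length, 29.8% held a GATA spelling and 57.5% held CACCC, which occurred in 8 of the 8. In Hbb-y the GATA match begins 162 bases before the start and CACCC 111 bases before it. In Hbb-bs they begin 210 and 90 bases before the start, and in Epor the GATA match begins 54 bases before it. The letters TGACCA, a core bound by Bcl11a, occurred in 3 of the 8 windows (Hba-x, Hbb-y and Epor), against 13.6% of all windows, and in neither adult beta globin window. These matches describe the sequence only.

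All 9 measured genes were lower on average in Foxd1-Cre kidneys than in wild-type replicates 1 to 6, and 3 of them passed the test: Alas2, Slc4a1 and Epor. In Six2-Cre kidneys all 6 measured globins, Alas2 and Slc4a1 were lower than in wild-type replicates 7 to 9 and Epor was higher, and all 9 passed. The test was limma on log2(FPKM + 1) over all genes, with a call at a Benjamini-Hochberg adjusted p under 0.05, and log2 changes on this scale understate those of genes at a few FPKM. For Foxd1-Cre, 4.82% of 13996 genes were called lower and 8.45% higher, beside which 3 of 9 genes fell and 0 rose. For Six2-Cre, 5.84% of 13828 genes were called lower and 7.93% higher, beside which 8 of 9 fell and 1 rose. The median log2 change over the 9 genes was -0.51 in Foxd1-Cre kidneys and -0.87 in Six2-Cre kidneys, while the median over all genes tested was -0.01 in each. Every one of the 9 genes passed the filter on low values, and the comparisons share no library.

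**Figure D1:**
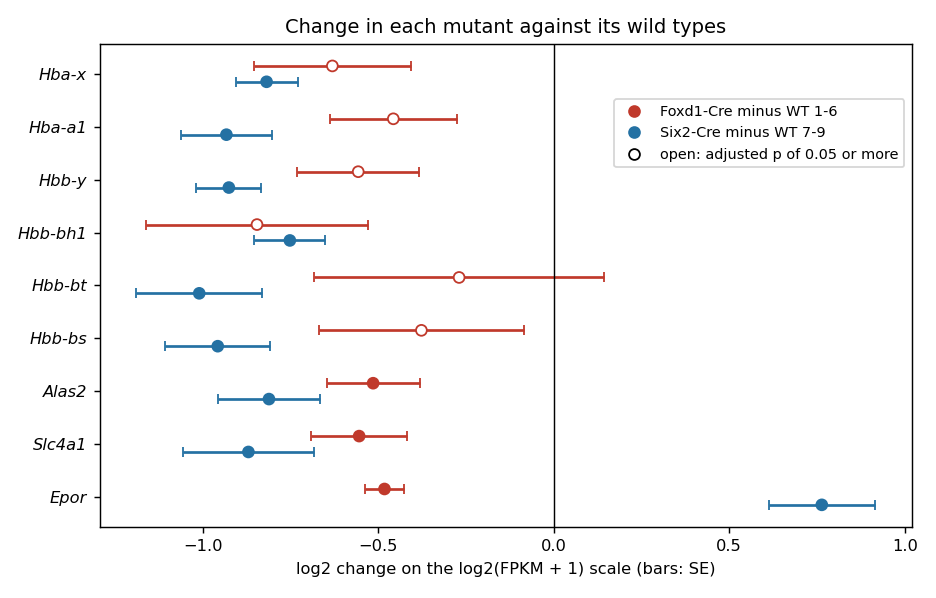
Log2 change on the log2(FPKM + 1) scale (x axis) of the 9 measured genes (rows), as Foxd1-Cre minus wild-type replicates 1 to 6 (red) and Six2-Cre minus wild-type replicates 7 to 9 (blue). Bars are SE and filled points have an adjusted p under 0.05; all points lie below 0 except Epor in Six2-Cre kidneys at 0.76, and 3 of the 9 Foxd1-Cre points are filled.

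Among the alpha-like globins, Hba-x, the embryonic chain, had 300.2, 378, 249.5, 445 and 305 FPKM in Foxd1-Cre replicates 1 to 5, against a lowest value of 323, a median of 515 and a highest value of 825 FPKM in wild-type replicates 1 to 6. These groups overlapped, since Foxd1-Cre replicates 2 and 4 lay above the lowest wild type. The log2 change was -0.63 ± 0.22 (SE) and did not pass (adjusted p = 0.0925, limma), and it passed without wild-type replicate 1 (-0.76, adjusted p = 0.0327) and with all 9 wild types as controls (-0.63, adjusted p = 0.0355). In Six2-Cre kidneys Hba-x had 313, 261 and 293 FPKM, against 463, 523 and 544 FPKM in wild-type replicates 7 to 9. The groups did not overlap, and Hba-x fell by 0.82 ± 0.09 on the log2 scale (adjusted p = 0.00338, limma).

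Hba-a1, the adult alpha chain, had 1131, 967, 1207, 1930.5 and 1273 FPKM in Foxd1-Cre kidneys, against 1328 at the lowest, 1660 at the median and 2290.4 at the highest in wild-type replicates 1 to 6. Foxd1-Cre replicate 4 alone lay within the wild-type range. The log2 change of -0.46 ± 0.18 (SE) did not pass (adjusted p = 0.134, limma), and it passed without that replicate (-0.61, adjusted p = 0.0236). In Six2-Cre kidneys Hba-a1 had 2289, 1756 and 2074 FPKM, against 3607, 3607 and 4459 FPKM in wild-type replicates 7 to 9. It fell to 52.4% of the wild-type mean, with no overlap and a log2 change of -0.93 ± 0.13 (adjusted p = 0.00744, limma). With all 9 wild types as controls the Six2-Cre call ended, at -0.16 (adjusted p = 0.693, limma).

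Hbb-y, the more abundant embryonic beta chain, had the highest level of the 9 genes in each Foxd1-Cre library, at 1677, 1900.2, 2043, 2777 and 2191 FPKM, against 2175 at the lowest, 2901 at the median and 4479 at the highest in wild-type replicates 1 to 6. Foxd1-Cre replicates 4 and 5 lay above the lowest wild type. Its log2 change of -0.56 ± 0.17 (SE) stood just outside the threshold (adjusted p = 0.0570, limma), and it passed without Foxd1-Cre replicate 4 (-0.66, adjusted p = 0.0305), without wild-type replicate 1 (-0.66, adjusted p = 0.0205) and with all 9 wild types as controls (-0.63, adjusted p = 0.0110). In Six2-Cre kidneys Hbb-y had 2053, 1737 and 1920 FPKM, against 3362, 3504 and 3985 FPKM in wild-type replicates 7 to 9. The groups did not overlap and Hbb-y fell by 0.93 ± 0.09 on the log2 scale (adjusted p = 0.00278, limma), to 52.6% of the wild-type mean.

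Hbb-bh1, the embryonic beta chain of the earliest red cells, had 74.5, 115, 59.4, 95.5 and 65.6 FPKM in Foxd1-Cre kidneys, against 79.3 at the lowest, 154 at the median and 279 at the highest in wild-type replicates 1 to 6. Its wild-type values were widely spread: replicates 2, 3 and 4 had 186 to 279 FPKM and replicates 1, 5 and 6 had 79.3 to 123 FPKM, the range that Foxd1-Cre replicates 2 and 4 fell in. The log2 change of -0.85 ± 0.32 (SE) did not pass (adjusted p = 0.111, limma). In Six2-Cre kidneys Hbb-bh1 had 69.8, 72.2 and 69.9 FPKM, against 102, 124 and 135 FPKM in wild-type replicates 7 to 9. It fell by 0.75 ± 0.10 on the log2 scale with no overlap (adjusted p = 0.00682, limma).

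Neither adult beta globin passed in Foxd1-Cre kidneys and both fell in Six2-Cre kidneys. Hbb-bs had 408, 212, 428, 854 and 363 FPKM in Foxd1-Cre kidneys, against 426 at the lowest, 499 at the median and 781 at the highest in wild-type replicates 1 to 6. Foxd1-Cre replicate 4 was above every wild type and replicates 1, 2 and 5 were below them all, and the log2 change of -0.38 ± 0.29 (SE) did not pass (adjusted p = 0.476, limma). Hbb-bt had 138, 41.5, 101, 289.8 and 91.3 FPKM in Foxd1-Cre kidneys, against 99.9 at the lowest, 114 at the median and 244 at the highest in wild-type replicates 1 to 6. The log2 change, -0.27 ± 0.41 (SE), missed the threshold (adjusted p = 0.744, limma) and was 0.07 without Foxd1-Cre replicate 2. In Six2-Cre kidneys Hbb-bs had 662, 459 and 523 FPKM, against 973, 997 and 1201 FPKM in wild-type replicates 7 to 9, a fall of 0.96 ± 0.15 on the log2 scale (adjusted p = 0.0109, limma). Hbb-bt there had 219.5, 141 and 143 FPKM, against 343, 299.9 and 356 FPKM, and fell by 1.01 ± 0.18 (adjusted p = 0.0170, limma). Both sets of Six2-Cre values lay below all 3 wild types. The Hbb-bt call ended, with adjusted p between 0.0509 and 0.0594, without wild-type replicate 7 or 9, and likewise without Six2-Cre replicate 2 or 3. With all 9 wild types as controls both Six2-Cre calls ended, at -0.30 for Hbb-bs (adjusted p = 0.501, limma) and -0.12 for Hbb-bt (adjusted p = 0.846, limma). With both adult beta genes summed before the fit, the log2 change was -0.35 in Foxd1-Cre kidneys (adjusted p = 0.550, limma) and -0.97 in Six2-Cre kidneys (adjusted p = 0.0113, limma).

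**Figure D2:**
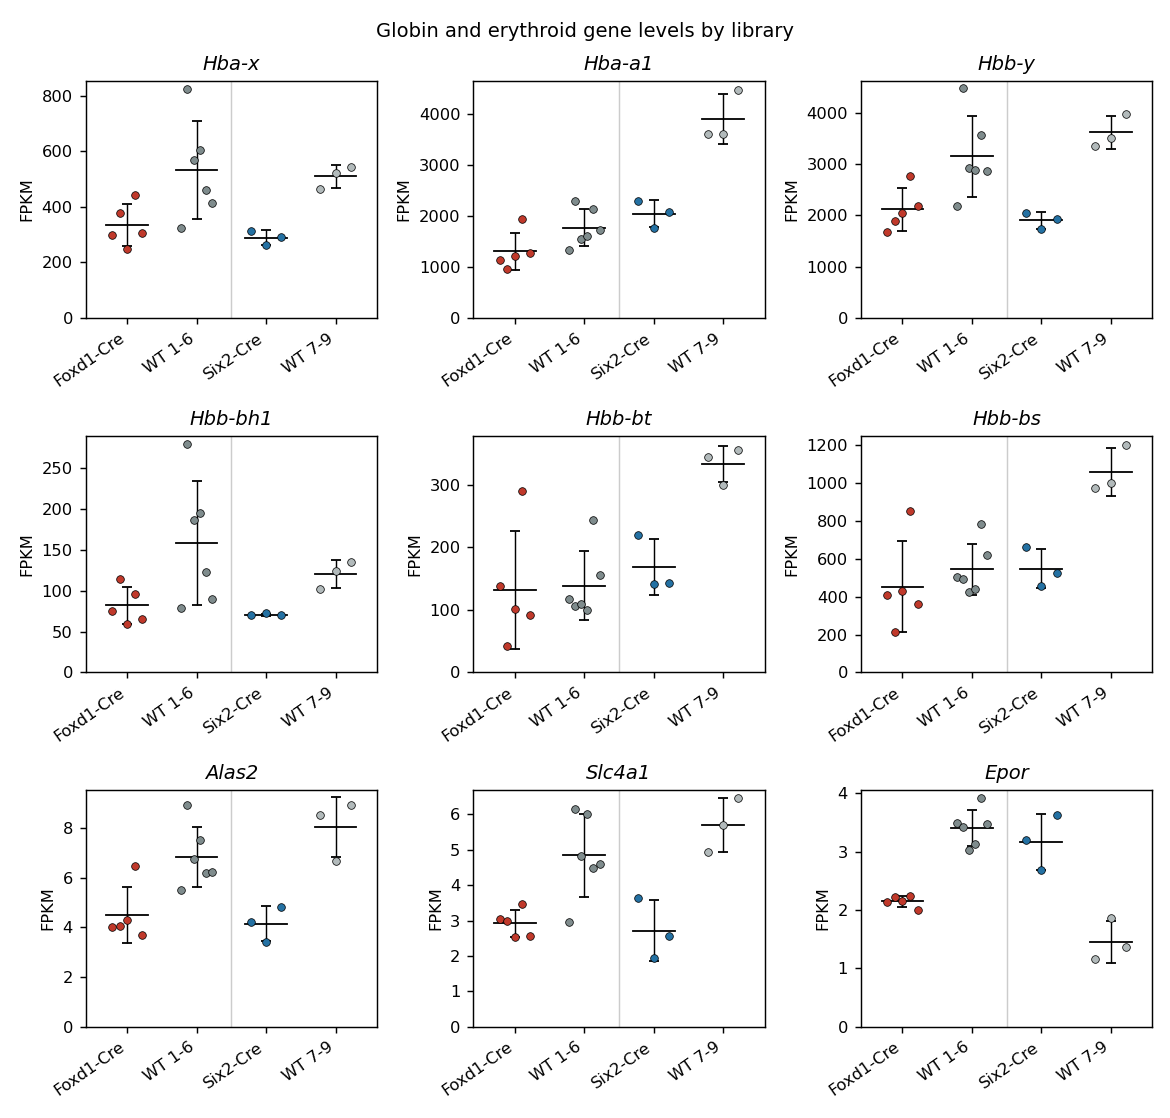
FPKM (y axes, linear, starting at 0) of the 9 measured genes in every library; points are libraries in replicate order, horizontal lines are means and bars are SD. From left, Foxd1-Cre (n = 5) stands beside wild-type replicates 1 to 6, and Six2-Cre (n = 3) beside wild-type replicates 7 to 9; Epor is the 1 panel in which the Six2-Cre points lie above their wild types.

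Alas2 had 4.03, 4.07, 4.30, 6.49 and 3.68 FPKM in Foxd1-Cre kidneys, against 5.48 at the lowest, 6.47 at the median and 8.91 at the highest in wild-type replicates 1 to 6. Foxd1-Cre replicate 4 stood apart from the other 4 and within the wild-type range. Alas2 fell to 4.51 ± 1.13 FPKM in Foxd1-Cre kidneys, against 6.84 ± 1.22 FPKM in wild types (SD, n = 5 and 6), a log2 change of -0.51 ± 0.13 (SE; adjusted p = 0.0242, limma). That call rested on single libraries: it ended without Foxd1-Cre replicate 1 (adjusted p = 0.0561), 2 (0.0602), 3 (0.0580) or 5 (0.0682) and without wild-type replicate 4 (0.0505). In Six2-Cre kidneys Alas2 had 4.22, 3.41 and 4.83 FPKM, against 8.52, 6.68 and 8.92 FPKM in wild-type replicates 7 to 9, with no overlap. It fell by 0.81 ± 0.15 on the log2 scale (adjusted p = 0.0181, limma), and the call ended, with adjusted p between 0.0510 and 0.0624, without wild-type replicate 7 or 9, and likewise without Six2-Cre replicate 1 or 2. Apex2, a DNA repair gene that overlaps Alas2 on the opposite strand, could share reads with it if counting ignored strand, which is not given in the sources used here. Apex2 did not pass in either comparison, with log2 changes of -0.02 in Foxd1-Cre kidneys (adjusted p = 0.880, limma) and 0.14 in Six2-Cre kidneys (adjusted p = 0.262, limma).

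Slc4a1 had 3.03, 3.00, 2.54, 3.46 and 2.57 FPKM in Foxd1-Cre kidneys, against 2.96 at the lowest, 4.71 at the median and 6.16 at the highest in wild-type replicates 1 to 6. Wild-type replicate 1, the lowest, lay among the Foxd1-Cre values and the other 5 wild types lay above them all. Slc4a1 fell by 0.55 ± 0.14 on the log2 scale (adjusted p = 0.0198, limma), and the call ended without Foxd1-Cre replicate 3 (adjusted p = 0.0561) or 5 (adjusted p = 0.0555). In Six2-Cre kidneys it had 3.63, 1.94 and 2.56 FPKM, against 4.93, 5.69 and 6.45 FPKM in wild-type replicates 7 to 9, with no overlap. It fell to 47.6% of the wild-type mean there, a log2 change of -0.87 ± 0.19 (adjusted p = 0.0298, limma). The Six2-Cre call ended, with adjusted p between 0.0596 and 0.0946, without any 1 of the 3 wild types, and likewise without Six2-Cre replicate 2 or 3.

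Epor was the 1 gene of the 9 whose change pointed in opposite directions. In Foxd1-Cre kidneys it had 2.14, 2.22, 2.16, 2.24 and 1.99 FPKM, against 3.03 at the lowest, 3.44 at the median and 3.91 at the highest in wild-type replicates 1 to 6. Every Foxd1-Cre library lay below every wild type, and Epor fell to 2.15 ± 0.10 FPKM, against 3.41 ± 0.31 FPKM (SD, n = 5 and 6), a log2 change of -0.48 ± 0.05 (SE; adjusted p = 8.3e-05, limma). This call held without each library in turn, with adjusted p of at most 0.000443. In Six2-Cre kidneys Epor had 3.19, 2.68 and 3.62 FPKM, against 1.16, 1.86 and 1.36 FPKM in wild-type replicates 7 to 9. Every Six2-Cre library lay above its wild types, and Epor rose with a log2 change of 0.76 ± 0.15 (SE; adjusted p = 0.0238, limma), to 217% of the wild-type mean. The call ended, with adjusted p between 0.0629 and 0.0831, without wild-type replicate 7 or 9, and likewise without Six2-Cre replicate 1 or 3. By the depth estimates above, these values were about 27 to 37 reads per Six2-Cre library and 12 to 18 reads per wild type of that set. The other set had about 103 to 146 reads per Foxd1-Cre library and 160 to 209 per wild type.

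The wild types of each set differed in Epor, with 3.03 to 3.91 FPKM in replicates 1 to 6 and 1.16 to 1.86 FPKM in replicates 7 to 9. The Six2-Cre values therefore lay near those of wild-type replicates 1 to 6, which belong to the other set. With all 9 wild types as controls neither Epor change passed: the log2 change was -0.20 in Foxd1-Cre kidneys (adjusted p = 0.490, limma) and 0.20 in Six2-Cre kidneys (adjusted p = 0.459, limma). A difference between the library sets and a difference between the wild types of each set cannot be told apart here.

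The effects in both mutants were set against each other as the Foxd1-Cre change minus the Six2-Cre change, with the errors of the separate fits added. Over 13810 genes, 5.24% were called with a lower value in this difference. Epor was the 1 gene of the 9 that passed, at -1.25 ± 0.16 on the log2 scale (adjusted p = 0.00183, limma fits with Satterthwaite degrees of freedom), and it passed without each library in turn. The same difference was -0.40 with all 9 wild types as controls (adjusted p = 0.157). For the other 8 genes no difference was shown: it was 0.48 ± 0.22 for Hba-a1 (adjusted p = 0.200), 0.74 ± 0.45 for Hbb-bt (adjusted p = 0.351) and -0.09 ± 0.33 for Hbb-bh1 (adjusted p = 0.904). These errors leave room for sizeable differences, and the size of the globin change in Foxd1-Cre kidneys was not shown to be smaller than in Six2-Cre kidneys.

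The make-up of globin RNA was then compared, since proportions within a library do not depend on how much blood RNA it holds. Summed over the 6 measured globins, Foxd1-Cre kidneys had 3728, 3613, 4087, 6392 and 4288 FPKM, against 4527, 8472, 5752, 5822, 7314 and 5861 FPKM in wild-type replicates 1 to 6. Six2-Cre kidneys had 5607, 4426 and 5023 FPKM, against 8850.3, 9055 and 10680.0 FPKM in wild-type replicates 7 to 9. Globin made up 0.403% to 0.907% of all FPKM in the first set and 0.547% to 1.30% in the second. Hbb-y with Hbb-bh1 held 80.0% ± 6.60 of beta-like globin in Foxd1-Cre kidneys and 82.5% ± 4.47 in wild-type replicates 1 to 6 (SD, n = 5 and 6; exact two-sided permutation p = 0.446). The same share was 73.6% ± 2.52 in Six2-Cre kidneys and 72.9% ± 0.661 in wild-type replicates 7 to 9 (SD, n = 3 each; exact permutation p = 0.8). Hba-x held 20.9% ± 4.27 of alpha-like globin, here Hba-x plus Hba-a1, in Foxd1-Cre kidneys and 22.9% ± 4.44 in wild types (exact permutation p = 0.524), and 12.5% ± 0.457 in Six2-Cre kidneys and 11.6% ± 0.920 in their wild types (exact permutation p = 0.3). The log2 ratio of beta-like to alpha-like globin was 0.77 ± 0.06 in Foxd1-Cre kidneys and 0.79 ± 0.05 in wild types (exact permutation p = 0.442), and 0.21 ± 0.04 in Six2-Cre kidneys and 0.22 ± 0.04 in their wild types (exact permutation p = 0.8). In both comparisons these means differed by less than the larger of the group SDs. The summed globin level averaged 4422 ± 1134 FPKM in Foxd1-Cre kidneys and 6291 ± 1386 FPKM in their wild types, and 5019 ± 590.3 FPKM in Six2-Cre kidneys and 9528 ± 1003 FPKM in theirs (SD).

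Set against summed globin, Alas2 had a log2 ratio of -9.93 ± 0.15 in Foxd1-Cre kidneys and -9.84 ± 0.21 in wild types (exact permutation p = 0.398), and -10.25 ± 0.20 in Six2-Cre kidneys and -10.22 ± 0.19 in their wild types (exact permutation p = 0.9). Slc4a1 had -10.54 ± 0.28 in Foxd1-Cre kidneys and -10.36 ± 0.27 in wild types (exact permutation p = 0.286), and -10.90 ± 0.28 in Six2-Cre kidneys and -10.71 ± 0.09 in their wild types (exact permutation p = 0.4). The mutant minus wild-type differences of these 4 pairs of means ran from -0.19 to -0.03. Epor departed from this in 1 comparison, with -10.64 ± 0.18 in Six2-Cre kidneys and -12.70 ± 0.39 in their wild types, and these groups did not overlap (exact permutation p = 0.1, the smallest that 3 against 3 allows). In Foxd1-Cre kidneys the Epor ratio was -10.97 ± 0.32, against -10.83 ± 0.30 in wild types (exact permutation p = 0.429). Over the 14 ratio and proportion tests no adjusted p was under 0.624, and the smallest p that 5 against 6 allows is 0.00433.

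**Figure D3:**
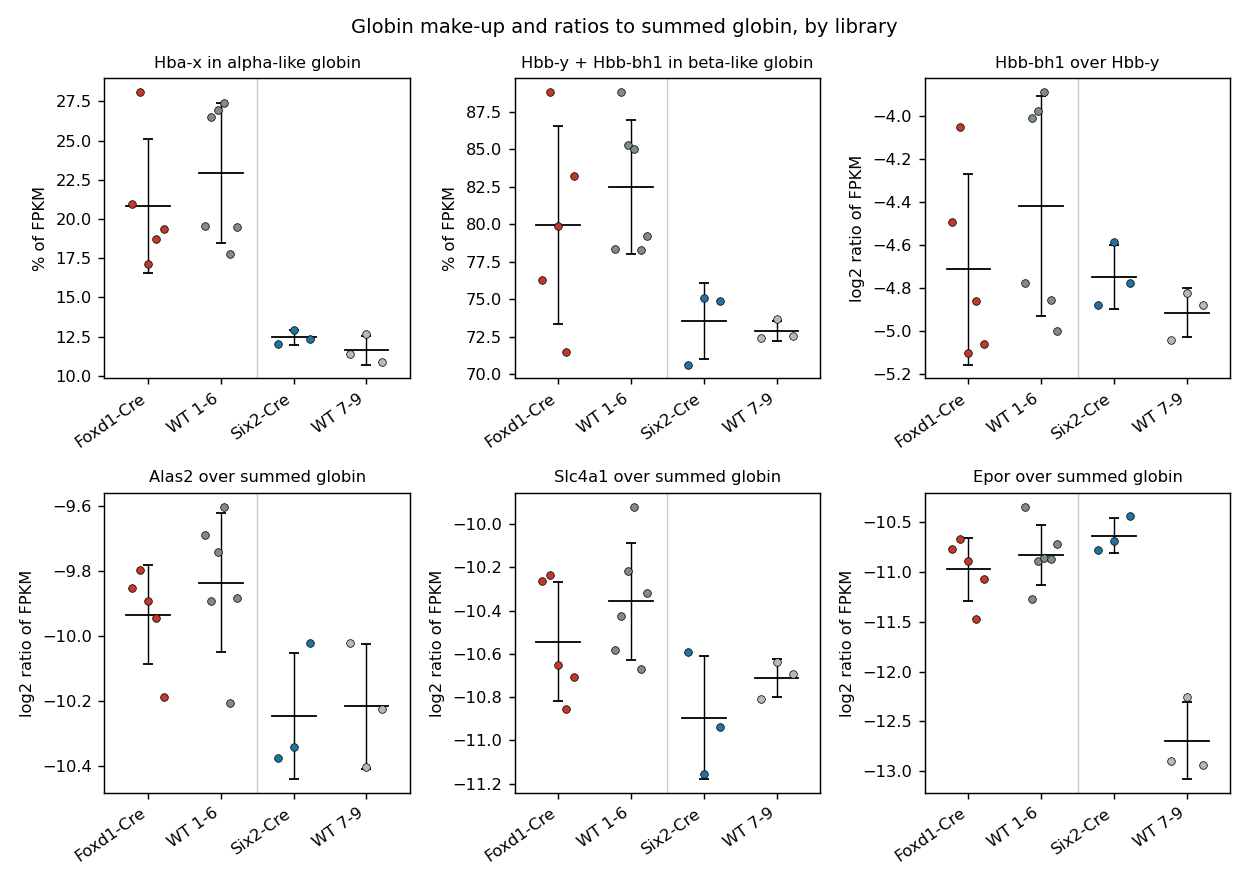
Globin proportions (% of FPKM) and log2 ratios of FPKM (y axes, not starting at 0) in every library, with means as lines and SD as bars; Foxd1-Cre stands left of wild-type replicates 1 to 6 and Six2-Cre left of wild-type replicates 7 to 9. Mutants overlap their wild types in every panel except Epor over summed globin, where Six2-Cre lies near -10.64 and its wild types near -12.70.

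Single libraries moved many of these genes together. Foxd1-Cre replicate 4 had the highest value of its group at 8 of the 9 genes, with 1144 FPKM of adult beta globin, against 254 to 545 FPKM in the other 4 libraries. Six2-Cre replicate 2 had the lowest value of its group at 8 genes, and wild-type replicate 9 the highest of its set at 8. Wild-type replicate 1 was lowest at 6 genes and wild-type replicate 2 highest at the same 6, namely Hba-x, Hba-a1, Hbb-y, Hbb-bh1, Alas2 and Slc4a1. Wild-type replicate 5 was highest at Epor, Hbb-bs and Hbb-bt. That library also had 21.9 FPKM of S100a8 and 19.3 FPKM of S100a9, neutrophil genes that were at most 1.12 FPKM in the other 5 wild types of its set. Its part in the adult beta globin result was not tested, and without it the log2 change of Hbb-bs in Foxd1-Cre kidneys was -0.27 (adjusted p = 0.639, limma). In the second set, S100a8 was at 0, 3.21 and 12.0 FPKM in Six2-Cre replicates 1 to 3 and at 0 in all 3 wild types, while the globins of Six2-Cre replicate 3, which had the most S100a8, lay between those of replicates 1 and 2 at all 6 genes.

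Across the library sets, wild types differed in adult more than in embryonic globin. Hba-a1 had 3607 to 4459 FPKM in wild-type replicates 7 to 9 and 1328 to 2290.4 FPKM in replicates 1 to 6, with no overlap, whereas Hba-x had 463 to 544 FPKM and 323 to 825 FPKM. The log2 ratio of beta-like to alpha-like globin was 0.18 to 0.25 in wild-type replicates 7 to 9 and 0.71 to 0.86 in replicates 1 to 6. Each mutant had the ratio of its own set, at 0.68 to 0.85 in Foxd1-Cre kidneys and 0.17 to 0.26 in Six2-Cre kidneys. These are values with no test, and the set of libraries and the embryos in it cannot be told apart.

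Other erythroid genes, taken from 5 lists of erythroid factors, heme synthesis, iron uptake, red cell membrane and red cell cytosol, did not move as a body. Of 59 such genes in the table, 45 passed the filter. There were 6 rises, 6 falls and 33 genes without a call in Foxd1-Cre kidneys, with a median log2 change of -0.03. There were 2 rises, 4 falls and 39 genes without a call in Six2-Cre kidneys, with a median of -0.11. Over all genes tested, 8.45% were called higher and 4.82% lower in Foxd1-Cre kidneys, and 7.93% and 5.84% in Six2-Cre kidneys. The Foxd1-Cre counts include Cbfa2t3 and Kel, which passed the filter only through the libraries in which they were high. All 10 genes of heme synthesis listed apart from Alas2, most of which every cell uses, were among those that did not pass in either comparison, for example Fech, the enzyme that inserts iron into heme, with 11.9 ± 0.761 FPKM in Foxd1-Cre kidneys and 13.1 ± 0.554 FPKM in wild types (SD; adjusted p = 0.0901, limma). Several genes particular to red cells were too low for the test: Gata1 had 0.0332 to 0.553 FPKM in Foxd1-Cre kidneys and 0.140 to 1.20 FPKM in wild types, and Klf1 had 0.337 to 0.555 FPKM in Foxd1-Cre kidneys and 0.464 to 0.924 FPKM in wild types. Gata1 and Klf1 were picked after their values had been seen.

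Nfe2, an erythroid and megakaryocyte transcription factor, fell in both mutants. It had 1.80 ± 0.28 FPKM in Foxd1-Cre kidneys and 2.80 ± 0.39 FPKM in wild types (SD; log2 change -0.44 ± 0.09 SE, adjusted p = 0.00519, limma), and 0.476 ± 0.204 FPKM in Six2-Cre kidneys and 2.20 ± 0.43 FPKM in their wild types (-1.12 ± 0.16, adjusted p = 0.00912, limma). Bcl11a, known in red cells as a repressor of embryonic beta-like globin and also used in other tissues, rose in both. It had 9.63 ± 0.71 FPKM in Foxd1-Cre kidneys and 2.63 ± 0.64 FPKM in wild types (log2 change 1.57 ± 0.11, adjusted p = 1.8e-06, limma), and 10.8 ± 1.16 FPKM in Six2-Cre kidneys and 5.05 ± 1.22 FPKM in their wild types (0.97 ± 0.16, adjusted p = 0.0144, limma). Beside this, the embryonic share of beta-like globin was 80.0% in Foxd1-Cre kidneys and 82.5% in wild types, and 73.6% in Six2-Cre kidneys and 72.9% in their wild types, as given above. Cbfa2t3, also on the list of erythroid factors, passed the filter only through mutant libraries, since every wild-type library lay under 1 FPKM. Its values are given as a description: 1.64 ± 0.259 FPKM in Foxd1-Cre kidneys and 0.572 ± 0.0687 FPKM in wild-type replicates 1 to 6. In Six2-Cre kidneys Cbfa2t3 had 1.21 ± 0.253 FPKM, against 0.622 ± 0.238 FPKM in their wild types, without a call. Tfrc, the transferrin receptor for iron uptake, fell to 31.3 ± 0.953 FPKM in Six2-Cre kidneys, against 43.6 ± 1.93 FPKM (adjusted p = 0.00347, limma), and did not pass in Foxd1-Cre kidneys. Among red cell membrane genes, Aqp1, the water channel, rose to 7.18 ± 1.82 FPKM in Foxd1-Cre kidneys, against 1.31 ± 0.193 FPKM (adjusted p = 3.4e-06, limma). Tmod1, an actin capping protein, rose to 5.50 ± 0.381 FPKM there, against 1.10 ± 0.0926 FPKM (adjusted p = 1.9e-09, limma). Both are also made outside red cells. Sptb, of the same list, rose to 2.09 ± 0.312 FPKM in Foxd1-Cre kidneys, against 0.982 ± 0.259 FPKM (adjusted p = 0.000862, limma). Kel, a red cell blood group protein, passed the filter only through wild types, since every mutant library lay under 1 FPKM. Its values are given as a description: 0.745 ± 0.121 FPKM in Foxd1-Cre kidneys and 1.37 ± 0.445 FPKM in wild-type replicates 1 to 6. Gypc, a sialoglycoprotein of the membrane, fell in Foxd1-Cre kidneys by 0.16 ± 0.04 on the log2 scale (adjusted p = 0.0220, limma). In Six2-Cre kidneys Epb41, a linker of the membrane skeleton, fell by 0.30 ± 0.07 (adjusted p = 0.0390, limma) and was the 1 gene of this list called. Car2, a carbonic anhydrase, fell in Foxd1-Cre kidneys by 0.42 ± 0.08 on the log2 scale (adjusted p = 0.00563, limma).

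**Figure D4:**
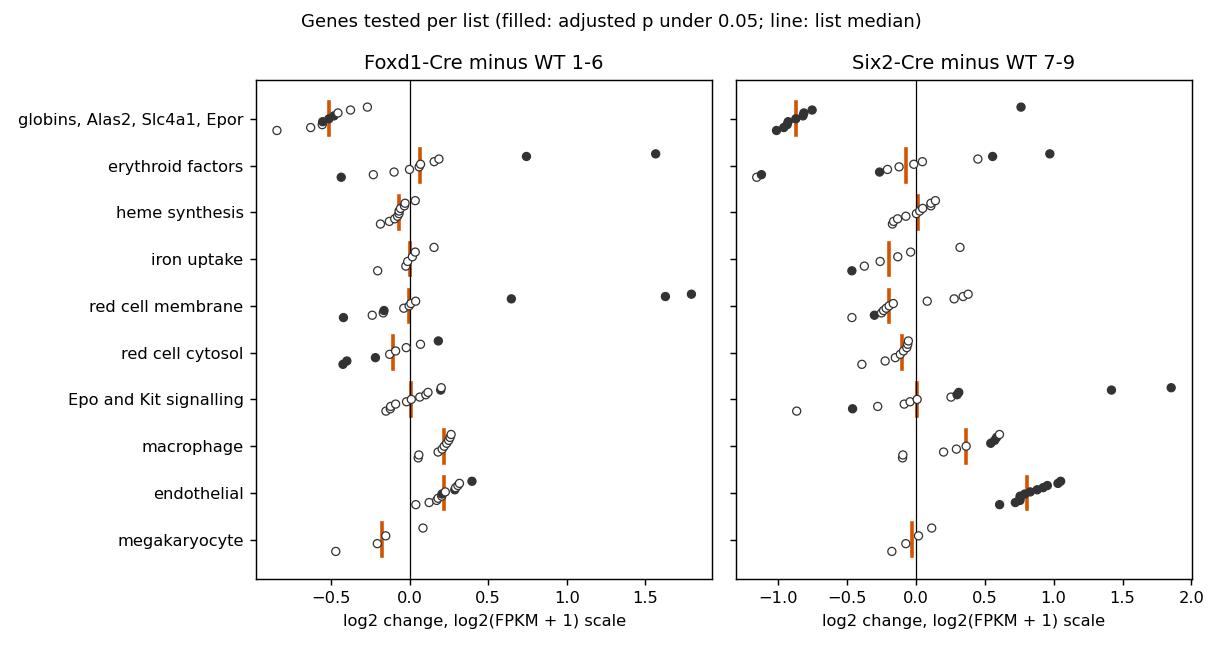
Log2 change on the log2(FPKM + 1) scale (x axes) of each tested gene, by list (rows), for Foxd1-Cre minus wild-type replicates 1 to 6 (left) and Six2-Cre minus wild-type replicates 7 to 9 (right); filled points have an adjusted p under 0.05 and orange lines are list medians. The top row holds all 9 measured genes and has medians of -0.51 on the left and -0.87 on the right, where its 1 point above 0 is Epor at 0.76. The heme synthesis row centres near 0 and the endothelial row has a median of 0.22 on the left and 0.81 on the right.

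Erythropoietin and Kit signalling was read from 12 genes besides Epor, of which 11 were tested. In Foxd1-Cre kidneys 1 rose and 0 fell, and in Six2-Cre kidneys 4 rose and 1 fell. Among all genes tested, the shares called higher and lower were 8.45% and 4.82% for Foxd1-Cre and 7.93% and 5.84% for Six2-Cre. Kit, the stem cell factor receptor of early blood progenitors and of other cell types, rose to 25.4 ± 1.89 FPKM in Six2-Cre kidneys, against 8.90 ± 1.23 FPKM (log2 change 1.42 ± 0.11, adjusted p = 0.0013, limma). Socs2, a feedback inhibitor of cytokine receptors, rose to 12.3 ± 0.720 FPKM there, against 2.74 ± 0.725 FPKM (1.85 ± 0.15, adjusted p = 0.00162, limma). Kit had a log2 change of -0.02 in Foxd1-Cre kidneys (adjusted p = 0.934, limma) and Socs2 had 0.20 (adjusted p = 0.204, limma).

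Endothelial markers moved the other way from globin in Six2-Cre kidneys. All 12 endothelial genes tested rose in Six2-Cre kidneys, with a median log2 change of 0.81, and their summed level was 282 to 295 FPKM in Six2-Cre kidneys and 145 to 169 FPKM in wild-type replicates 7 to 9. Cdh5, the cadherin of endothelial junctions, had 37.5 ± 1.84 FPKM in Six2-Cre kidneys and 19.0 ± 2.35 FPKM in their wild types (SD; adjusted p = 0.00277, limma). In Foxd1-Cre kidneys 3 of 12 rose (Pecam1, Emcn and Flt1), with summed levels of 234 to 303 FPKM in Foxd1-Cre kidneys and 218 to 277 FPKM in wild types. The rise of Epor in Six2-Cre kidneys came with higher endothelial markers, and their part in it was not tested. Of 9 macrophage genes tested, 3 rose in Six2-Cre kidneys (C1qb, C1qc and Mrc1), with sums of 29.2 to 32.5 FPKM in Six2-Cre kidneys and 18.1 to 23.8 FPKM in wild types, and 0 passed in Foxd1-Cre kidneys. None of the 4 megakaryocyte genes or the 3 granulocyte genes tested passed in either comparison, and the fetal liver markers Alb and Afp were at most 4.23 FPKM in any library. Of 8 genes of the developing kidney, 7 fell in Six2-Cre kidneys and 3 in Foxd1-Cre kidneys.

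The genes whose variation among libraries of the same group most resembled that of the 9 genes were ranked by mean Pearson correlation of deviations from the group means, over 17 libraries and 12173 genes. Hoxc6 led with a mean r of 0.60, followed by Romo1 with 0.59, Gon7 with 0.57, Rusc2 with 0.57 and Stard3nl with 0.55, and then by Tm2d1, Nnat, Chd3, Jun and Spcs1, the last with 0.54. None of the first 10 belonged to an erythroid list or to another list used here. These correlations describe libraries that share their set and carry no test.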

How the data were processed

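Bulk RNA-seq libraries of E12.5 mouse kidneys were grouped by their titles. Per the submitters' processing notes, the authors used bcl2fastq 2.17.1.14 and Salmon with GRCm38. They deposited 1 table of FPKM values, with no statement on gene-level summary, scaling between libraries or strand. Read counts were not used here. Depth was estimated from the lowest FPKM values above 0, each assumed to be 1 read, which covers counting error only.

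Genes reaching 1 FPKM in 3 or more of the 17 libraries were kept and fitted as log2(FPKM + 1) with limma 3.58.1 (R 4.3.3, variance trend, Benjamini-Hochberg adjustment, threshold 0.05), separately for each mutant and the wild types of its library set. Proportions and ratios were tested with exact permutation tests in SciPy 1.17.1, and the fits were tested on simulated data. Named genes were all members, genes of the lists, and the 10 most alike in pattern. The plan was to name up to 4 genes per list by smallest p, which the naming did not follow in every list. The members and lists were chosen with earlier results of these data known. Alternatives were all 9 wild types as controls, a pseudocount of 0.1, no filter, rescaled totals, no trend, summed copies, a replicate block and leaving out each library.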

Additional observations from a re-analysis of the deposited data

Results flagged for a closer look

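Alas2 in Foxd1-Cre replicate 4 was 6.49 FPKM, far from the other 4 Foxd1-Cre libraries at 3.68 to 4.30 FPKM. That distance exceeded Dixon's 95% critical value, which chance passes in about 1 of 20 groups, and 32 groups were examined. The same library was the highest of its group at 8 of the 9 genes. The Epor change in Foxd1-Cre kidneys minus that in Six2-Cre kidneys was -1.25 on the log2 scale, and the test of this difference passed.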

How the results depend on the processing

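With all 9 wild types as controls, the genes called numbered 1234 for Foxd1-Cre and 6444 for Six2-Cre, against 1856 and 1905 with the wild types of each set, the members called numbered 4 and 5 against 3 and 9, and 0 passed in the difference of effects. In Six2-Cre kidneys the calls of Hba-a1 (-0.16, adjusted p = 0.693, limma), Hbb-bt (-0.12, adjusted p = 0.846) and Hbb-bs (-0.30, adjusted p = 0.501) ended there. The Foxd1-Cre minus Six2-Cre difference turned to -0.68 for Hba-a1, 0.17 for Hbb-bh1, -0.59 for Hbb-bt and -0.40 for Hbb-bs. Mutant minus wild-type values that turned were the Hba-x share (1.68 points in Foxd1-Cre, -6.72 in Six2-Cre), the embryonic beta-like share (0.647 and -5.75 points) and the log2 ratios of Hbb-bh1 over Hbb-y in Six2-Cre (-0.17), and of beta-like over alpha-like (0.16), Alas2 over globin (0.0284) and Epor over globin (0.48) in Foxd1-Cre. This setting mixes the library sets, and the cause was not tested.

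Leaving out each library in turn gave 1423 to 1922 genes for Foxd1-Cre and 907 to 1467 for Six2-Cre, with 1 to 5 and 5 to 8 members called. For Foxd1-Cre the 1 was without Foxd1-Cre replicate 3 or 5, and the 5 without Foxd1-Cre replicate 4 or wild-type replicate 1. For Six2-Cre the 5 was without wild-type replicate 7 or 9. Hbb-bt in Foxd1-Cre ran from -0.62 to 0.0737 and the Hbb-bh1 difference from -0.26 to 0.10. In Six2-Cre the embryonic beta-like share ran from -0.117 to 2.11 points, beta-like over alpha-like from -0.0357 to 0.00875 and Alas2 over globin from -0.142 to 0.0682.

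With the replicate block, Foxd1-Cre had 1426 genes and 4 members called, the added one being Hbb-bh1 (-0.98, adjusted p = 0.0332, limma). Same-numbered libraries correlated by 0.0117 to 0.117 in their deviations, with 1 of 5 over 0.1, so the numbers were not taken as pairs. Six2-Cre and its wild types share no numbers. The pseudocount, filter, scaling and trend alternatives changed no call of a member, and Hba-a1 could not be summed with Hba-a2. At 12 to 37 reads, Epor in the second set is limited by depth.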

Other observations

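Of 8 genes used by early blood progenitors, 5 passed the filter on low values, 1 of them (Runx1) only through the libraries in which it was high. Cd34 and Mecom were called higher in Six2-Cre kidneys, where 7.93% of all genes were. Cd34, which endothelial cells also make, had 35.5 FPKM in Six2-Cre kidneys and 21.3 FPKM in wild-type replicates 7 to 9 (log2 change 0.71, adjusted p = 0.00169, limma), beside a median change of 0.81 over the 12 endothelial genes. Mecom had 59.1 FPKM in Six2-Cre kidneys and 50.3 FPKM in wild types (0.23, adjusted p = 0.0251, limma). Runx1 passed through the Six2-Cre libraries alone, and its values are given as a description: 13.9 FPKM in Six2-Cre kidneys, 0.396 FPKM in Foxd1-Cre kidneys, 0.510 FPKM in wild-type replicates 7 to 9 and 0.208 FPKM in wild-type replicates 1 to 6. Hlf and Spi1 did not pass (adjusted p = 0.356 and 0.427, limma). In Foxd1-Cre kidneys Mecom fell to 16.5 FPKM, against 30.1 FPKM (adjusted p = 7.1e-06, limma). Cygb, a globin of connective tissue cells, rose to 5.18 FPKM in Six2-Cre kidneys, against 2.02 FPKM (log2 change 1.04, adjusted p = 0.0102, limma). In Foxd1-Cre kidneys Cygb had 3.54 FPKM, against 2.72 FPKM in wild types, without a call (adjusted p = 0.0522, limma).

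Within library set 1, the ratio of Hbb-y to Hbb-bh1 varied widely within each genotype, which is given as a description with no test. It was 16.6 and 22.5 in Foxd1-Cre replicates 2 and 1 and 29.1 to 34.4 in Foxd1-Cre replicates 3 to 5, against 14.8 to 16.1 in wild-type replicates 2 to 4 and 27.4 to 32.1 in wild-type replicates 1, 5 and 6. In set 2 it was 24.1 to 29.4 in Six2-Cre kidneys and 28.3 to 33.0 in wild types. Foxd1-Cre replicate 2, which had the lowest ratio of its group, also had the lowest adult beta globin of all 17 libraries, at 254 FPKM. The ratio of Hbb-bs to Hbb-bt was 2.95 to 5.12 in Foxd1-Cre kidneys and 3.21 to 4.63 in wild-type replicates 1 to 6, and 3.02 to 3.65 in Six2-Cre kidneys and 2.83 to 3.38 in wild-type replicates 7 to 9.

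Epo, the hormone that Epor binds, had a value of 0 in Six2-Cre replicates 1 to 3 and of 0, 1.42 and 1.49 FPKM in wild-type replicates 7 to 9. It was 0.196 to 0.625 FPKM in Foxd1-Cre kidneys and 0.125 to 1.03 FPKM in wild-type replicates 1 to 6. Epo did not pass in Six2-Cre kidneys (adjusted p = 0.178, limma) or in Foxd1-Cre kidneys (adjusted p = 0.612, limma), and all of its values were low.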
